A study of Homo sapiens with 4 samples.

Results

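The cytosolic ribosomal protein genes are the genes for the protein subunits of the ribosome that works outside the mitochondria. They were taken by name, as the symbols RPL or RPS followed by digits with an optional A, L, X or Y suffix, together with RPSA, RPLP0, RPLP1 and RPLP2. Pseudogenes, the RPS6K kinases and hyphenated symbols were left out. The rule found 81 genes among the 24424 symbols counted, 49 of the large subunit (60S) and 32 of the small subunit (40S). RNA sequencing was done on BEAS-2B cells, an immortalized line from the human bronchial epithelium, with 1 library for each of 4 conditions. Control cells had no treatment, LPS cells received bacterial lipopolysaccharide for 2 hr, and the WT PDZ+LPS and mut PDZ+LPS cells were kept with the wild-type or the mutant peptide for 24 hr before the same 2 hr of LPS. The mutant peptide carries alanines in place of a pair of glycines of the wild-type peptide. With 1 library per condition, no test between conditions was possible. The intervals given are exact binomial (Clopper-Pearson) intervals at 95% for 2 libraries, cover counting error only, as reads are not independent molecules, and say nothing of the spread between cultures.

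A ribosome joins the small subunit, which reads the mRNA, to the large subunit, which forms the peptide bond, and each of its proteins is needed in about equal amount. Most of these mRNAs begin with a terminal oligopyrimidine (TOP) tract, a C followed by a run of C and T, through which growth signalling from the kinase mTOR sets how well they are translated. They are short and abundant, and bulk RNA sequencing of total mRNA measures their amount, not their translation. In such libraries, less RNA per cell and fewer cells that carry it cannot be told apart.

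Total counts per library were 24823347 for Control, 25155647 with LPS alone, 23446600 with WT PDZ+LPS and 19682929 with mut PDZ+LPS, so that the mut PDZ+LPS library was the shallowest. All 7 epithelial markers (KRT5, KRT7, KRT8, KRT18, KRT19, CDH1 and EPCAM) passed the expression rule, which asks for 16 or more normalized counts on average over the 4 libraries. Of the markers of other cells, 2 of 4 leukocyte, 1 of 4 fibroblast and none of 3 endothelial markers passed it, and the leukocyte marker PTPRC and the fibroblast markers COL3A1 and LUM were at 0 in all 4 libraries. Over the 6 LPS response genes listed, the summed normalized count was 5593 in Control, 125031 with LPS alone, 114525 with WT PDZ+LPS and 153962 with mut PDZ+LPS.

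The start sites of the genes on which the results turn are shown first, because the TOP tract is the sequence feature this family shares. Each line gives 10 bases before the annotated start and the first 15 transcribed bases on the strand of the gene, from RefSeq promoters on GRCh38.p14. Capitals mark the unbroken run of C and T from the start site where the first base is C. The reads were mapped to hg19, so these positions belong to the RefSeq table and not to the count files.
RPLP0 (chr12:120201097-120201121, minus strand): ggcgcgaggcCCTTCTCTCgccagg
RPLP2 (chr11:809957-809981, plus strand): tcggcgccttCCTTTTCCTCCCTgt
RPS6 (chr9:19380222-19380246, minus strand): gaagttggccCTCTTTTCCgtggcg
RPL41 (chr12:56116623-56116647, plus strand): cttcgcctttCTCTCggccttagcg
RPS19 (chr19:41860245-41860269, plus strand): ccccgtcgttCCCTTTCCCCTggct
RPL36 (chr19:5690285-5690309, plus strand): cggcgccagcCCTTCCgccacggcc
RPL13 (chr16:89560647-89560671, plus strand): tgctatcatcCCagagtgcattgcg
RPS26 (chr12:56041908-56041932, plus strand): acataacctcgattttcttccgcca
RPL21 (chr13:27251548-27251572, plus strand): ccgcctctttCCTTTCggccggaac
RPS27 (chr1:153990752-153990776, plus strand): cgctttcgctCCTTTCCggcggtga
RPS27L (chr15:63157463-63157487, minus strand): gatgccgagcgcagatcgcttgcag
RPLP2 carries a tract of 13 bases and RPS19 one of 11, whereas RPL41 has 5. At the annotated starts of RPS26 and RPS27L there is no such tract, and RPS27 differs in this from its copy RPS27L.

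Over the family, 64 of the 81 genes had a RefSeq promoter. A C at the start followed by at least 4 pyrimidines was found in 42 of the 64, or 65.6%. The same start was found in 4.04% of all 27305 promoters and in 5.37% of the 9758 promoters of genes that passed the expression rule. It was present in 5 of 68 promoters of mitochondrial ribosomal proteins (7.35%). The median tract of the 42 genes was 8 bases and the longest was 19. The core CCGGAA of the ETS factor motif was searched on both strands over 250 bases before and 50 bases after the start. It was in 54.7% of the 64 promoters, 17.6% of all promoters and 30.5% of those of genes that passed the expression rule. Among promoters of mitochondrial ribosomal proteins it was in 55.9%. AAGATGG, the core of the YY1 motif, was in 12.5% of the 64 on either strand and in 6.06% of all promoters. It was in 7.67% of the promoters of genes that passed the rule and in 33.8% of those of mitochondrial ribosomal proteins. These are matches of letters at annotated starts, not measured binding or measured starts.

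The family took up a large part of every library. Its counts made up 5.80% of all counts in Control (interval 5.79 to 5.81), 5.04% with LPS alone (5.03 to 5.04), 5.12% with WT PDZ+LPS (5.11 to 5.13) and 6.97% with mut PDZ+LPS (6.96 to 6.98). The share was thus lowest in the LPS library and highest in the mut PDZ+LPS library, and LPS and WT PDZ+LPS lay nearest to each other. The large subunit held 3.58%, 3.11%, 3.16% and 4.30% of the counts in that order, and the small subunit 2.22%, 1.92%, 1.96% and 2.67%. Both subunits therefore followed the same order. These shares do not depend on a scaling between libraries.

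Of the 81 genes, 78 passed the expression rule of 16 normalized counts, that is, counts divided by a size factor for each library. The other 3, RPL10L and RPL3L among them, were listed at 0 in all 4 libraries, and a 0 still allows up to 3 counts. RPL10L is a copy of RPL10 used in the testis and RPL3L a copy of RPL3 used in muscle. Among the 78 genes, the median normalized count was 13483 in Control, 12319 with LPS alone, 12544 with WT PDZ+LPS and 18741 with mut PDZ+LPS. Over all 13072 genes that passed the rule the median was 698, 710, 719 and 692. At least 5000 normalized counts were reached by 75, 74, 74 and 75 of the 78 genes in the 4 libraries, and only RPL21 and RPL39L stayed below 1000.

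**Figure D1:**
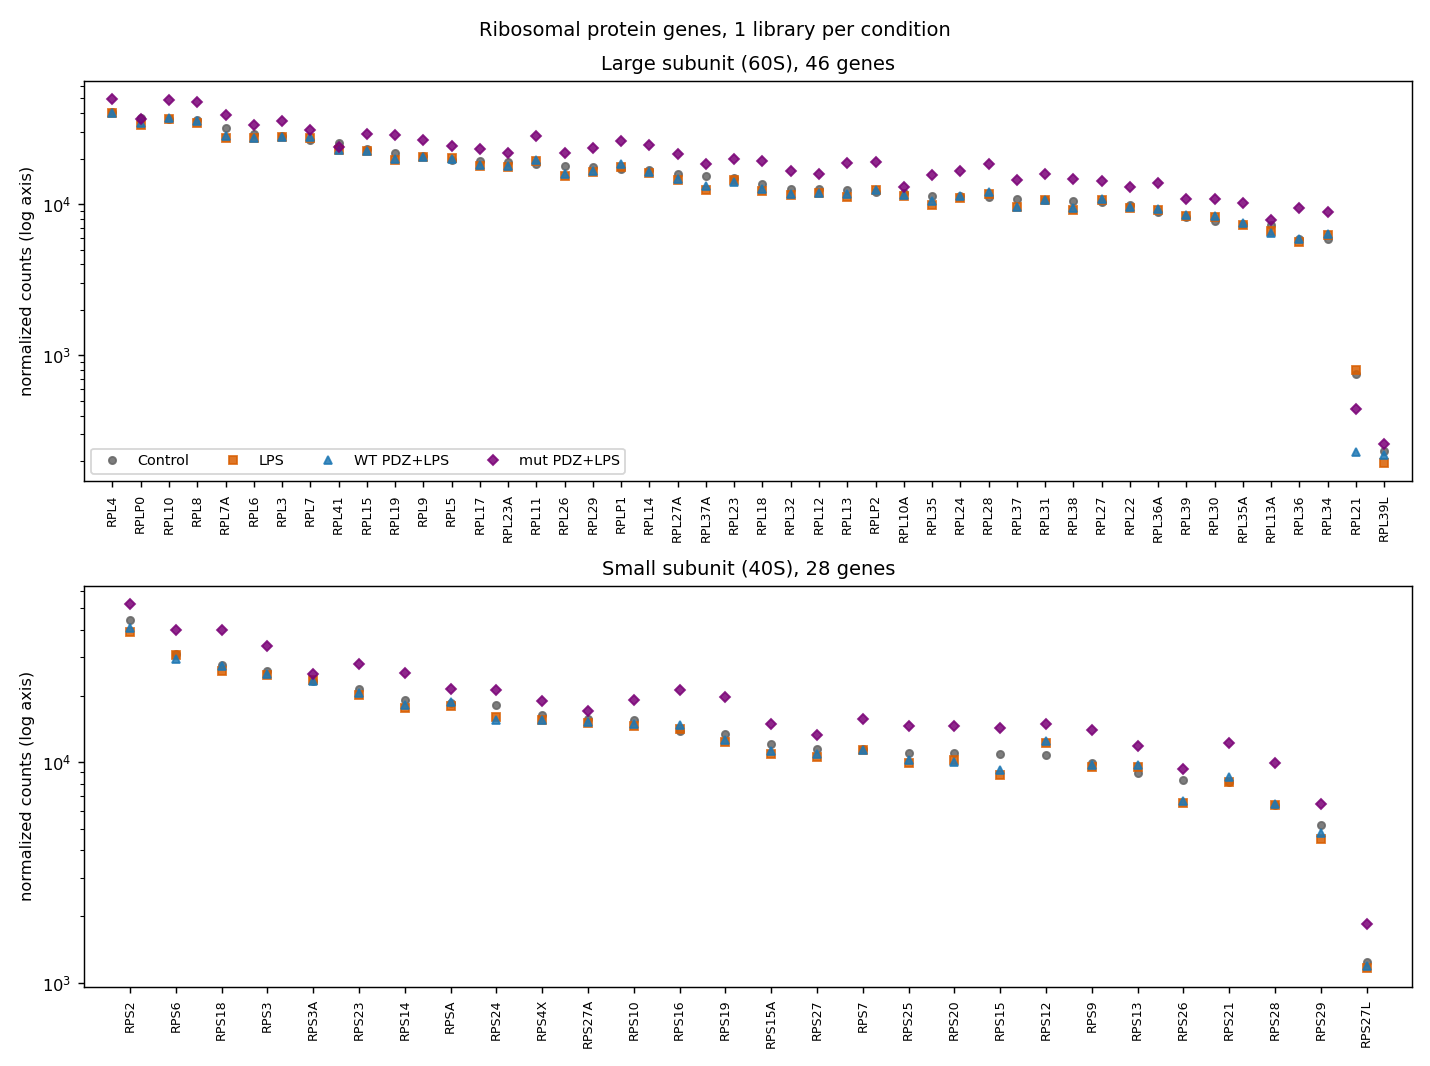
Normalized counts (log axis) of 74 of the ribosomal protein genes above the expression rule, with 1 point per library and genes ordered by their Control value within each subunit. The mut PDZ+LPS point is the highest of the 4 for 71 of the genes drawn, and RPL21 and RPL39L lie below the rest.

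Levels were compared between genes as normalized counts per kilobase of the principal annotated transcript. The 5 highest by the mean over the libraries were RPL41, RPS18, RPS2, RPL8 and RPL7A. RPL41, which encodes a very short basic peptide of the large subunit, had 54210 in Control, 48743 with LPS alone, 48506 with WT PDZ+LPS and 50570 with mut PDZ+LPS. RPS18, a small subunit protein, had 44950, 42314, 44651 and 65091 in the same order. RPL41 was first in the first 3 of these libraries and was passed by RPS18 and RPS2 in mut PDZ+LPS. The order depends on the transcript chosen: with the median-length transcript the 5 highest were RPL4, RPS2, RPL10, RPL8 and RPS18, 3 of them shared.

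LPS/Control asks what 2 hr of LPS did to the family. On the log2(normalized count + 1) scale, the median difference was -0.072 (0.951-fold), against -0.0010 over all genes. Of the 78 genes, 17 were higher and 61 lower in the LPS library. Under the geometric scaling 50.2% of all genes were lower. None of the 78 reached 2-fold in either direction, where 4.87% of all genes did, and none reached 1.5-fold (11.5% of all genes). The whole counting interval lay below 0 for 52 of the 78 (21.2% of all genes) and above 0 for 13 (26% of all genes). Counting intervals narrow as counts rise, and the median normalized count in Control was 13483 for the family and 698 over all genes. Smaller differences therefore clear 0 in the family than in most genes, here and wherever such shares are given below. Scaling by the total count moved the median of all genes to -0.13 and that of the family to -0.20, with 1 gene higher and 77 lower. A scaling moves all genes of a comparison by nearly the same amount. The distance between the family and all genes, -0.071, was therefore bound to stay alike under the 4 scalings.

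The lowest values belonged to RPS26, RPS15, RPL37A and RPL39L. RPS26, a small subunit protein at the mRNA exit channel, had 8331 normalized counts in Control, 6516 with LPS alone, 6686 with WT PDZ+LPS and 9347 with mut PDZ+LPS. Its LPS/Control log2 difference was -0.35 (interval -0.40 to -0.31). RPS15, a protein of the small subunit head, had 10932, 8746, 9242 and 14272 in the same order, a difference of -0.32 (interval -0.36 to -0.28). Both genes were lowest in LPS, next lowest in WT PDZ+LPS and highest in mut PDZ+LPS. RPL37A, a zinc-binding large subunit protein, was at -0.30 in LPS/Control. RPL39L, a copy of RPL39 known from the testis, was at -0.27 with a wide interval from -0.54 to -0.01, since it had only 234 normalized counts in Control.

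The highest values in LPS/Control belonged to RPS12, RPL21, RPS13 and RPL30. RPS12, a protein of the small subunit beak, had 10800 in Control, 12282 with LPS alone, 12504 with WT PDZ+LPS and 14913 with mut PDZ+LPS. Its difference was 0.19 (interval 0.15 to 0.22), so that Control was its lowest library. RPS13 and RPL30 both stood at 0.09. RPL21 stood at 0.11 with an interval from -0.03 to 0.25. Summed with its pseudogene symbol RPL21P28 it stood at -0.036, in the other direction. The values of these genes under the total count scaling were lower by the same shift as the median of all genes.

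WT PDZ+LPS/LPS asks whether the wild-type peptide altered the LPS state. The family was close to unity, with a median log2 difference of 0.029 (1.02-fold) against 0.0075 over all genes. Of the 78 genes 66 were higher (52.7% of all genes) and 12 lower under the geometric scaling. Under TMM 59 were higher and 19 lower, with the median over all genes at -0.0013. At least 2-fold was reached by 1 gene, RPL21, which was lower, where 1.37% of all genes reached it in either direction and 0.733% lower. The other 77 genes lay between -0.05 and 0.17. The whole counting interval lay above 0 for 31 of the 78 (12.1% of all genes) and below 0 for RPL21, RPL23, RPS24 and RPS6 (10.1% of all genes).

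RPS6 is the small subunit protein that the S6 kinases phosphorylate downstream of mTOR. It had 30863 normalized counts in Control, 30639 with LPS alone, 29527 with WT PDZ+LPS and 39972 with mut PDZ+LPS. Its WT PDZ+LPS/LPS difference was -0.05 (interval -0.08 to -0.03), the lowest after RPL21, followed by RPS24 and RPL13A, both at -0.04. The interval of RPL13A, from -0.09 to 0.01, spans 0, and summed with its pseudogene symbol RPL13AP5 it stood at 0.07, in the other direction. The highest were RPL39L at 0.17 (interval -0.11 to 0.45), and RPS29 and RPL37A, each at 0.09. For RPL39L too the interval spans 0.

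The mut PDZ+LPS library stood apart. In mut PDZ+LPS/LPS, which asks what the mutant peptide did to the LPS state, the median log2 difference of the 78 genes was 0.47 (1.39-fold), against -0.023 over all genes. A total of 77 genes were higher and 1, RPL21, was lower, where 47.9% of all genes were higher. The whole counting interval lay above 0 for the same number, 77, against 28.8% of all genes. The middle of the family was narrow, with quartiles of 0.36 and 0.58. The large subunit had a median of 0.47 over 47 genes and the small subunit 0.46 over 31 genes. None of the 78 reached 2-fold (3.95% of all genes in either direction). At least 1.5-fold higher was reached by 18 genes (7.89% of all genes), and RPL21 alone was at least 1.5-fold lower (9.8% of all genes). Summed over all members, the normalized counts differed by 0.435 on the log2 scale (interval 0.432 to 0.439).

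The 18 genes at least 1.5-fold higher in mut PDZ+LPS/LPS were RPL13, RPL14, RPL18, RPL24, RPL28, RPL35, RPL36, RPL36A, RPL37, RPL38, RPLP2, RPS15, RPS16, RPS18, RPS19, RPS21, RPS27L and RPS28. RPL13, a large subunit protein, had 12337 normalized counts in Control, 11158 with LPS alone, 11612 with WT PDZ+LPS and 18566 with mut PDZ+LPS. Its log2 difference of 0.73 (interval 0.70 to 0.77) was the highest, level with RPL36 at 0.73 (0.68 to 0.78). RPL36, another large subunit protein, had 5915, 5644, 5887 and 9353. RPS19, the small subunit protein most often mutated in the inherited anemia named after Diamond and Blackfan, had 13484, 12330, 12584 and 19790, a difference of 0.68 (0.65 to 0.72). In each of these genes the mut PDZ+LPS value was above the other 3, which lay close together.

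The lowest values in mut PDZ+LPS/LPS, apart from RPL21, were those of RPL41, RPS3A and RPLP0. RPL41 had 25424 normalized counts in Control, 22860 with LPS alone, 22749 with WT PDZ+LPS and 23717 with mut PDZ+LPS, a difference of 0.05 (0.03 to 0.08). RPS3A, a small subunit protein, had 23387, 23733, 23354 and 25060, a difference of 0.08 (0.05 to 0.10). These genes were thus nearly level over all 4 libraries while most of the family was about 1.39-fold higher in one of them.

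**Figure D2:**
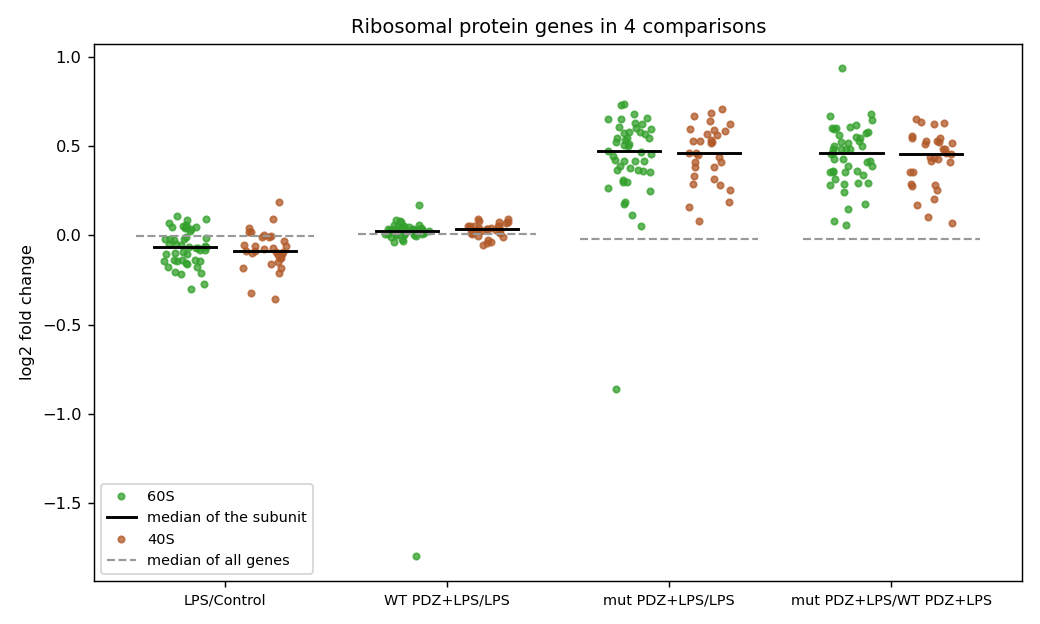
Log2 fold changes of the 78 ribosomal protein genes in the 4 comparisons, with 1 point per gene, the large (60S) and small (40S) subunit apart, a black line at the median of each subunit and a dashed line at the median of all genes. The points lie near the dashed line in LPS/Control and WT PDZ+LPS/LPS and above it in both comparisons of mut PDZ+LPS, except RPL21 at -0.86 in mut PDZ+LPS/LPS; RPL21 is also the single point at -1.80 in WT PDZ+LPS/LPS.

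mut PDZ+LPS/WT PDZ+LPS compares the peptides that differ by the exchange of glycines for alanines, both given for 24 hr before the same LPS. All 78 genes were higher with the mutant peptide (48.4% of all genes), 77 of them by their whole counting interval (29.4% of all genes), and the median was 0.46 (1.38-fold) against -0.020 over all genes. None reached 2-fold, where 4.26% of all genes did in either direction. At least 1.5-fold higher was reached by 13 genes (8.4% of all genes). The highest was RPL21 at 0.93 (interval 0.70 to 1.18), followed by RPL13 at 0.68, RPL36 at 0.67 and RPS19 at 0.65. Summed with its pseudogene symbol RPL21P28, however, RPL21 stood at only 0.10. Among the lowest were RPL41 at 0.06, RPLP0 at 0.08 and RPS3A at 0.10. Both comparisons of mut PDZ+LPS rest on the same single library, and so do not support each other.

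Across the 4 libraries, mut PDZ+LPS was highest for 75 of the 78 genes, where it was highest for 36.1% of all genes. RPL41 and RPLP0 were highest in Control, and RPL21 in LPS. The LPS library was lowest for 52 of the 78 genes, against 17.7% of all genes.

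By role, the stalk proteins did not move as one. The stalk of the large subunit, which recruits the translation factors that use GTP, is built from RPLP0 at its base with pairs of RPLP1 and RPLP2. RPLP0 had 37117 normalized counts in Control, 33561 with LPS alone, 34318 with WT PDZ+LPS and 36252 with mut PDZ+LPS. RPLP1 had 16965, 17479, 18424 and 26024, and RPLP2 had 11932, 12309, 12442 and 18970. Against LPS, the mut PDZ+LPS library differed on the log2 scale by 0.11 for RPLP0 (0.09 to 0.13), 0.57 for RPLP1 (0.55 to 0.60) and 0.62 for RPLP2 (0.59 to 0.66). Only RPLP0 was highest in Control, and in LPS/Control it was at -0.15 while RPLP1 and RPLP2 were each at 0.04.

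RPL5 and RPL11 bind the 5S rRNA and, outside the ribosome, the p53 ligase MDM2. RPL5 had 19506 in Control, 20263 with LPS alone, 19947 with WT PDZ+LPS and 24354 with mut PDZ+LPS. RPL11 had 18489, 19399, 19556 and 28256. Both were slightly higher in LPS than in Control (0.05 and 0.07), unlike most of the family, and they stood at 0.27 and 0.54 in mut PDZ+LPS/LPS. Of the 14 genes listed for Diamond-Blackfan anemia 13 passed the rule. Their median in mut PDZ+LPS/LPS was 0.47, from RPL5 at 0.27 to RPS19 at 0.68, close to that of the whole family.

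RPS27A is made as a fusion with ubiquitin. It had 15676 in Control, 15064 with LPS alone, 15218 with WT PDZ+LPS and 17143 with mut PDZ+LPS, a difference of 0.19 (0.15 to 0.22) in mut PDZ+LPS/LPS. FAU, whose name is outside the symbol rule, joins a ubiquitin-like protein to a small subunit protein and had 5741, 5937, 6377 and 9964. Its difference was 0.75, above every member of the family. Both genes were highest in mut PDZ+LPS, by unequal amounts.

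The copies RPS27L and RPL39L were read at lower levels than their parents. RPS27L, a copy of RPS27 induced by p53, had 1245 in Control, 1162 with LPS alone, 1192 with WT PDZ+LPS and 1847 with mut PDZ+LPS. Its parent RPS27 had 11534, 10564, 10960 and 13286. Against LPS alone, the copy with mut PDZ+LPS stood at 0.67 (0.56 to 0.78) and the parent at 0.33 (0.29 to 0.37). RPL39L had 234, 194, 218 and 258 normalized counts, against 8258, 8387, 8516 and 10778 for its parent RPL39. Among copies outside the symbol rule, RPL22L1, RPL26L1 and RPL36AL stood at 0.63, 0.58 and 0.54 in mut PDZ+LPS/LPS. RPL7L1, a protein of early large subunit assembly, stood at -0.52 (interval -0.62 to -0.41). Its principal transcript is long, at 3769 nt, and after the length and GC correction described below it stood at -0.27.

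RPL21 was the exception in both peptide comparisons with the LPS library. This large subunit protein gene had 860 reads in Control, 857 with LPS alone, 229 with WT PDZ+LPS and 377 with mut PDZ+LPS, or 748, 806, 231 and 443 normalized counts. Its log2 difference in WT PDZ+LPS/LPS was -1.80 (interval -2.02 to -1.59). In the other comparison with LPS, that of the mutant peptide, it was -0.86 (-1.04 to -0.69). The symbol RPL21P28, a pseudogene copy, carried far more reads than the gene: 14445 normalized counts in Control, 14009 with LPS alone, 14707 with WT PDZ+LPS and 15578 with mut PDZ+LPS. RPL21 held 4.93%, 5.44%, 1.55% and 2.76% of the reads of the pair in the same order. Summed over the pair, the log2 difference was 0.012 with the wild-type peptide and 0.11 with the mutant one, so the lower count of RPL21 was not seen in the sum. How reads that match both copies were counted is not given in the sources used here, and the split between them is uncertain.

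RPL13A, a large subunit protein that also acts in an interferon-gamma-activated inhibitor complex, also had more reads on a pseudogene symbol than on its own. It had 7290 normalized counts in Control, 6616 with LPS alone, 6445 with WT PDZ+LPS and 7849 with mut PDZ+LPS, beside 20982, 20212, 21697 and 27836 on RPL13AP5. For mut PDZ+LPS/LPS the gene alone stood at 0.25 (0.20 to 0.30) and the sum of the pair at 0.41. RPL36A had 8801, 9176, 9339 and 13874 normalized counts, while the read-through symbol RPL36A-HNRNPH2 had 67.0, 303.8, 408.0 and 1265. The share of RPL36A in their sum was 99.2% in Control, 96.8% with LPS alone, 95.8% with WT PDZ+LPS and 91.6% with mut PDZ+LPS. In all, 33 members have a pseudogene, read-through or other copy symbol in the files, or are themselves such a copy. Over these, copies such as RPL39L and RPS27L are counted with their parents. Over the 47 expressed members outside this set, the median in mut PDZ+LPS/LPS was 0.52, above the 0.47 of all 78.

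**Figure D3:**
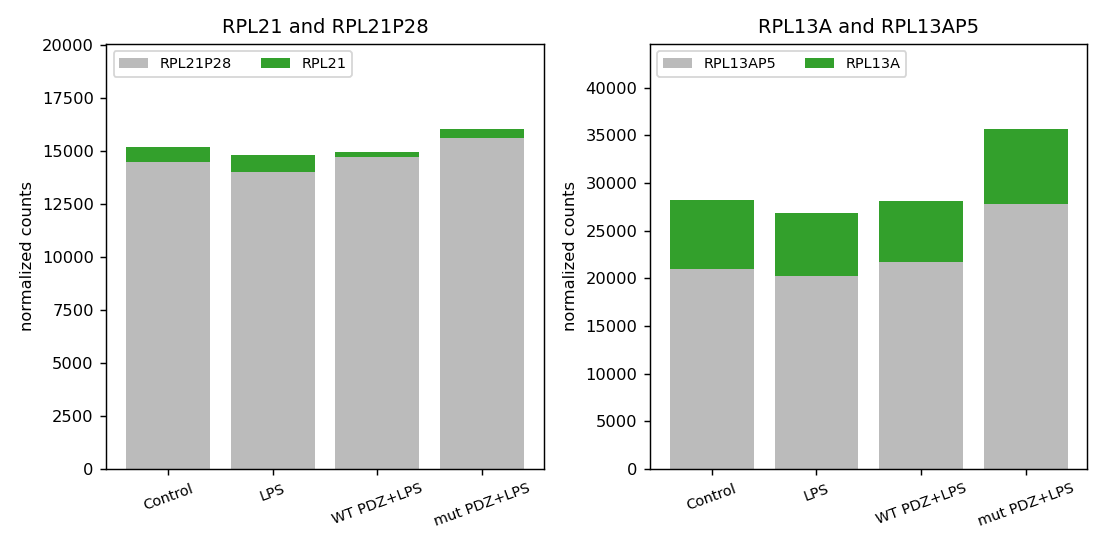
Normalized counts of RPL21 with its pseudogene symbol RPL21P28 (left) and of RPL13A with RPL13AP5 (right), stacked, in the 4 libraries. The green part of the left panel, RPL21, is 5.44% of the pair in LPS and 1.55% in WT PDZ+LPS while the pair sums to a log2 difference of 0.012 between them.

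Transcript length moved with the mut PDZ+LPS result. The principal transcripts of the 78 genes in GENCODE 29 had a median of 818 nt, against 3001 nt over all expressed genes with a length, and 51 of the 78 were at most 1000 nt, where 5.52% of all genes were. Across 11751 genes, the log2 difference in mut PDZ+LPS/LPS was lower for longer principal transcripts (Spearman's rho -0.576, a description over genes that share both libraries). In WT PDZ+LPS/LPS this rho was 0.072 and in LPS/Control 0.15. Among the 78 genes alone it was -0.020 in mut PDZ+LPS/LPS.

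Up to 1000 nt, other genes of the same length stood near the value of the family. Over 500 and up to 750 nt, 27 ribosomal protein genes had a median of 0.51 in mut PDZ+LPS/LPS and 208 other genes 0.50. Over 750 and up to 1000 nt, 16 had 0.44 and 359 others 0.41. Up to 500 nt, 8 had 0.53 and 31 others 0.63. Above 1000 nt the family stood higher than the other genes in each bin. Over 1000 and up to 1500 nt, 13 had 0.38 and 1027 others 0.28, and over 1500 and up to 2000 nt, 3 had 0.30 and 1420 others 0.18. The distance was larger above 2000 nt, where 6 ribosomal protein genes over 2000 and up to 3000 nt had 0.46 and 2754 others 0.035, and 5 above 3000 nt had 0.58 and 5874 others -0.24. The 11 genes above 2000 nt were RPL10, RPL13, RPL22, RPL23, RPL27A, RPL37, RPL37A, RPL4, RPS19, RPS23 and RPS27L. The median-length annotated transcripts of all 11 are short, from 500 nt (RPS19) to 836 nt (RPS23). That of RPL37 is 637 nt and that of RPS27L 693 nt, against principal transcripts of 7686 and 6434 nt. Which transcript the cells made was not measured, so the values above 2000 nt depend on the annotated transcript chosen.

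**Figure D4:**
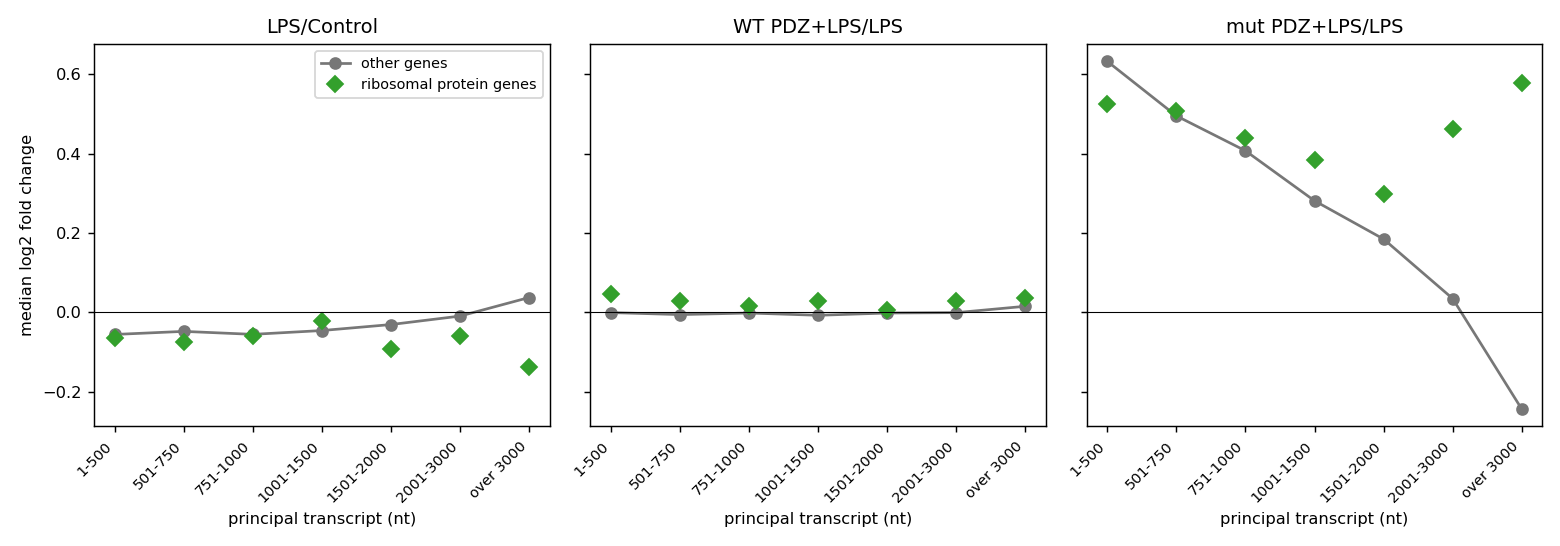
Median log2 fold change in bins of principal transcript length (nt) for the ribosomal protein genes (diamonds) and all other genes (line) in 3 comparisons. In mut PDZ+LPS/LPS the line falls from 0.63 in the shortest bin to -0.24 in the longest, and the diamonds lie near it up to 1000 nt and above it beyond 1000 nt, farthest beyond 2000 nt. The ribosomal protein genes beyond 2000 nt have median-length transcripts of 500 to 836 nt.

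After a lowess correction for the length and GC content of the principal transcript, the family's median for mut PDZ+LPS/LPS came to 0.045, not 0.47. Above 0 were 53 of the 78 genes, where 5829 of all 11751 genes were. Against WT PDZ+LPS the family's median came to 0.024, not 0.46, with 44 of its genes above 0, where 5821 of all 11751 genes were. With the longest protein-coding transcript of each gene the medians were 0.13 and 0.081, and with the median-length transcript 0.46 and 0.41. The size of the difference that remains therefore depends on the transcript taken for the length. Over all genes, the uncorrected mut PDZ+LPS/LPS rho was -0.604 for the longest transcript length, -0.576 for the principal and -0.291 for the median-length. After each correction the rho with that length was 0.092, 0.100 and 0.061 in the same order. In LPS/Control the median was -0.017 and in WT PDZ+LPS/LPS 0.033 after the correction by the principal transcript. The corrected value of RPL41 was -0.45 in mut PDZ+LPS/LPS, below genes of like length, while RPL37 and RPS27L, with their long annotated transcripts, both stood at 1.10. The part of transcript length in the result was not tested, and treatment and library cannot be told apart with 1 library each.

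Other genes of the translation machinery were set beside the family. The 18 listed elongation factors and other 5′ TOP mRNAs had a median of 0.18 in mut PDZ+LPS/LPS, 14 higher and 4 lower, from EIF4B at -0.66 to EEF1D at 0.49. Of the 34 ribosome biogenesis factors 20 were higher and 14 lower (median 0.081), from UTP20 at -1.01 to LYAR at 0.60. The 18 regulators of ribosomal protein synthesis had a median of -0.20, with 6 higher and 12 lower, from SP1 at -0.96 to EIF4EBP1, an inhibitor of cap-dependent translation, at 0.57. The ribosomal proteins of the mitochondria, whose principal transcripts had a median of 1370 nt, had a median of 0.28, with 65 of 77 higher, and the nuclear-encoded subunits of the respiratory chain 0.38, with 65 of 75 higher. After the correction by the principal transcript these last medians were 0.024 over 77 genes and 0.017 over the 60 with a length, beside 0.045 for the cytosolic family. The corrected medians were -0.011 for the 17 TOP mRNAs with a length, 0.094 for the biogenesis factors and -0.11 for the regulators. Principal transcripts in these lists had medians of 2091, 2486 and 5445.5 nt in the same order. The order of the groups thus differed after the correction, with the biogenesis factors above the family.

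In LPS/Control the groups were ordered differently. The biogenesis factors had a median of 0.074, with 26 of 34 higher, up to DDX21 at 0.33, and the regulators 0.10, with 13 of 18 higher, up to MYC, a transcription factor that drives ribosome synthesis, at 1.07. The cytosolic ribosomal proteins stood at -0.072, and the mitochondrial ones at -0.061 with 19 of 77 higher. In WT PDZ+LPS/LPS all of these medians lay between -0.046 and 0.033. No difference between the groups was tested.

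**Figure D5:**
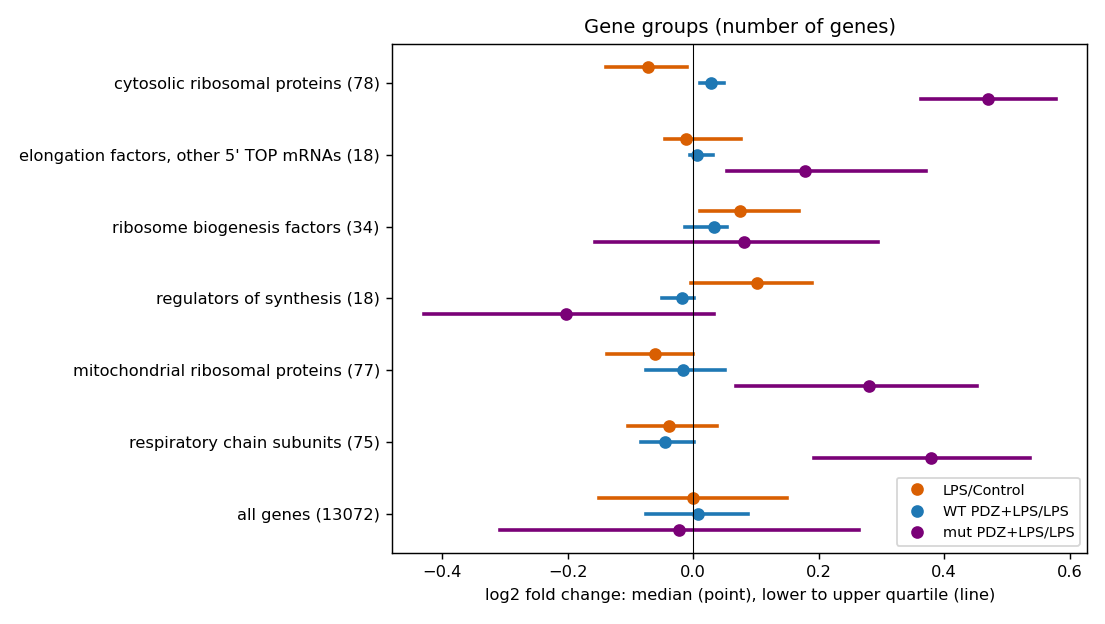
Log2 fold changes of 7 gene groups in 3 comparisons, with a point at the median and a line from the lower to the upper quartile of each group, and the number of genes in brackets. The cytosolic ribosomal proteins have the narrowest line and the highest median in mut PDZ+LPS/LPS (0.47), with the respiratory chain subunits (0.38) and mitochondrial ribosomal proteins (0.28) next. The values drawn are not corrected for transcript length.

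Members with and without the TOP start were compared last. The 42 members with it had a median of 0.52 in mut PDZ+LPS/LPS, from -0.86 (RPL21) to 0.73, and the 21 expressed members with another annotated start had 0.42, from 0.19 to 0.73. RPL13, one of the highest members, has a run of only 2 pyrimidines at its annotated start, whereas RPL41 and RPLP0, at the low end, have 5 and 9. In LPS/Control the medians were -0.077 and -0.062. Within the family, the log2 difference in mut PDZ+LPS/LPS had a Spearman's rho of 0.34 with GC content and -0.26 with the mean normalized count over the 78 genes, which share both libraries. Over all genes these were 0.41 and -0.16, so neither relation is particular to the family.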

How the data were processed

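RNA of BEAS-2B cells was poly(A)-selected, and libraries were made with a stranded kit and sequenced in paired reads. Per the labels and the study's methods, the authors checked reads with FastQC, trimmed them with FASTX_Trimmer and BBMap and mapped them with TopHat; hg19 is named in the submitters' processing notes. The authors deposited raw counts per gene symbol, 1 table per library; the counting tool, strand setting and treatment of multiply mapped reads are not given in the sources used here.

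Counts were divided by geometric (median-of-ratios) size factors (DESeq2 1.42.0 in R 4.3.3): 1.15 for Control, 1.06 for LPS, 0.990 for WT PDZ+LPS and 0.851 for mut PDZ+LPS. A pseudocount of 1 was added before log2. Genes averaging 16 or more normalized counts were kept (13072). A change was a fold of 2 or more where one of the 2 libraries reached 16 normalized counts, or 4 in log2 terms. Groups came from the treatment labels, with no test. Transcript lengths came from GENCODE 29 (GRCh38), matched by symbol for 11751 of the kept genes, with a lowess span of 0.3. Named are the 4 highest and 4 lowest members of each comparison, the 5 highest per kilobase, the role lists, the members under the rule, and the ends of the other lists; genes listed for passing a threshold, for their transcript length or for sharing reads with a copy were chosen after their values were seen. Some genes that this rule takes are not reported here by name. The members and lists were chosen with earlier results of these data known. Alternatives were scaling by the upper quartile, the total count or TMM (edgeR 4.0.16), a pseudocount of 5, other expression rules, a 1.5-fold threshold, length corrections and leaving out members with copies. The geometric scaling, the fold rule and the length correction were first run on simulated libraries with known folds and a length trend. The other scalings were not part of that simulation. The software was scipy 1.17.1, statsmodels 0.14.6, pandas 2.3.3 and numpy 2.4.6 in Python 3.11.15.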

Additional observations from a re-analysis of the deposited data

Results flagged for a closer look

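RPL23, RPS24 and RPS6 were lower than LPS with the wild-type peptide and higher with the mutant peptide, each with a counting interval on one side of 0. RPL23, a large subunit protein, was at -0.034 on the log2 scale in WT PDZ+LPS/LPS and at 0.465 in mut PDZ+LPS/LPS. RPS24 was at -0.044 and 0.413, and RPS6 at -0.053 and 0.384. The difference between the comparisons was not tested, both share the 1 LPS library, and the values with the wild-type peptide are small. In mut PDZ+LPS/LPS, 77 of the 78 genes had a whole interval above 0 (28.8% of all genes). In WT PDZ+LPS/LPS, 10.1% of all genes had a whole interval below 0. Neither share over all genes is matched for count level.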

How the results depend on the processing

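With 1 library per condition, no spread between cultures can be given, and shifts beyond counting error are given here even where small. No paired analysis was possible because each condition had 1 library. The direction of each median held under every alternative run. For the median in LPS/Control (-0.072), TMM gave -0.078, total count -0.20, upper quartile -0.13, the principal-transcript correction -0.017, and members without a copy -0.062. In WT PDZ+LPS/LPS (0.029), TMM gave 0.020 and the correction 0.033, and without members with a copy 0 genes were changed in place of 1. In mut PDZ+LPS/LPS (0.47), TMM gave 0.46, total count 0.50, upper quartile 0.53, the correction 0.045 and members without a copy 0.52. In mut PDZ+LPS/WT PDZ+LPS (0.46), total count gave 0.49, upper quartile 0.52, the correction 0.024 and members without a copy 0.48. Chosen after seeing the data, the correction by the longest protein-coding transcript gave -0.022, 0.033, 0.13 and 0.081 in these 4 comparisons, and by the median-length transcript -0.058 for LPS/Control, and 0.46 and 0.41 for mut PDZ+LPS against LPS and against WT PDZ+LPS. Against LPS alone, 0 genes in mut PDZ+LPS reached 2-fold, against 3 after the principal correction, 4 with the longest transcript and 19 at 1.5-fold. The 3 were RPL21 at -1.19, and RPL37 and RPS27L, both at 1.10. Of the 19, 18 were higher (7.89% of all genes) and RPL21 was lower (9.8% of all genes). Against WT PDZ+LPS 0 became 2 (RPL37 and RPS27L), 3 and 13, and 1 with the median-length transcript. The 13 were all higher (8.4% of all genes). Shares over all genes were not computed for the corrected values. Without the 100 highest other genes in the denominator the share of counts was 6.74% in Control, 5.99% with LPS alone, 6.08% with WT PDZ+LPS and 8.34% with mut PDZ+LPS; with pseudogene symbols added it was 5.97%, 5.19%, 5.28% and 7.16%. A pseudocount of 5, no expression rule and a stricter one of 64 moved none of the medians beyond counting error and none of the counts by over 1.5 times.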
